A study of Mus musculus with 24 samples.

Results

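The expression of the platelet-derived growth factor (PDGF) family was followed in 3T3 MEFs, an immortalized mouse embryonic fibroblast line. The 6 genes were chosen by family membership, not by a threshold on a measured value, but with earlier results of these data known, and comprise the ligands Pdgfa, Pdgfb, Pdgfc and Pdgfd and the receptors Pdgfra and Pdgfrb. They are 6 of the 55471 genes counted in each library, and all 6 were among the 17522 genes that had enough counts to be tested. PDGF ligands are secreted as dimers. They bring receptor tyrosine kinases together at the cell surface, and the paired receptors then phosphorylate each other and recruit signaling proteins. In background knowledge, PDGF-A and PDGF-C act mainly through PDGFRα, PDGF-D through PDGFRβ, and PDGF-B through both, and the family is best known for driving growth and migration of fibroblasts and other mesenchymal cells.

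Poly(A) or total RNA of 24 libraries was sequenced, with 3 libraries in each of 8 groups. The groups were WT MEFs, Lkb1-/- MEFs, and the Lkb1-/-/Crtc2-/- clones A1 and A2, each left untreated or given IL-1β at 0.1 ng/mL for 6 hours. Lkb1 (Stk11) encodes a kinase that activates the salt-inducible kinases, and Crtc2 encodes a CREB coactivator that these kinases hold in the cytoplasm. Each clone grew from a single edited cell with guides against the first Crtc2 exon, and both clones also carry the Lkb1 deletion, so a clone differs from Lkb1-/- MEFs by the Crtc2 edit and by whatever sets one clone apart from another. WT and Lkb1-/- MEFs are separate cell populations, and 3 libraries of one population do not show how far other lines of the same genotype would differ. No source used here states that replicates came from separate cultures, so the p-values measure the spread between these libraries, which may be technical. All cells were grown in 10% fetal bovine serum, which itself contains PDGF, and treatment with PDGF is not among the groups.

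Each library had between 38842901 and 48594394 read pairs on genes. Stk11 fell 4.96-fold in untreated Lkb1-/- against WT MEFs (log2 fold change -2.31 ± 0.07 SE, edgeR FDR = 1.06e-16), and Crtc2 was 1.89-fold lower in clone A1 and 1.63-fold lower in clone A2 than in untreated Lkb1-/- MEFs. Of 9 fibroblast markers 7 passed the filter on low counts, and their summed level lay between 5357 and 9637 CPM (read pairs of a gene relative to the scaled library total) in all libraries, with Thy1 at 3 counts or fewer in each. Ptprc and Adgre1, of 5 macrophage and leukocyte markers, and Cdh5 and Cldn5, of 5 endothelial ones, were also at 3 counts or fewer in every library, while Cd68 had group means of 3.28 to 6.11 CPM, and the 5 epithelial markers summed to at most 2.93 CPM. Libraries with replicate number 1 stood apart in all 8 groups. Chi-square distances per gene between replicate 1 and the others were 37.7 to 106, against 7.41 to 18.6 between replicates 2 and 3, and 29.9% to 34.4% of their read pairs fell on no gene, against 26.7% to 30.04%. Replicate 1 held the lowest Pdgfrb level in 8 of 8 groups and the lowest Pdgfra level in 7 of 8. For this reason many of the receptor fold changes between genotypes are also given from replicates 2 and 3 alone, an alternative chosen after seeing the data.

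**Figure D1:**
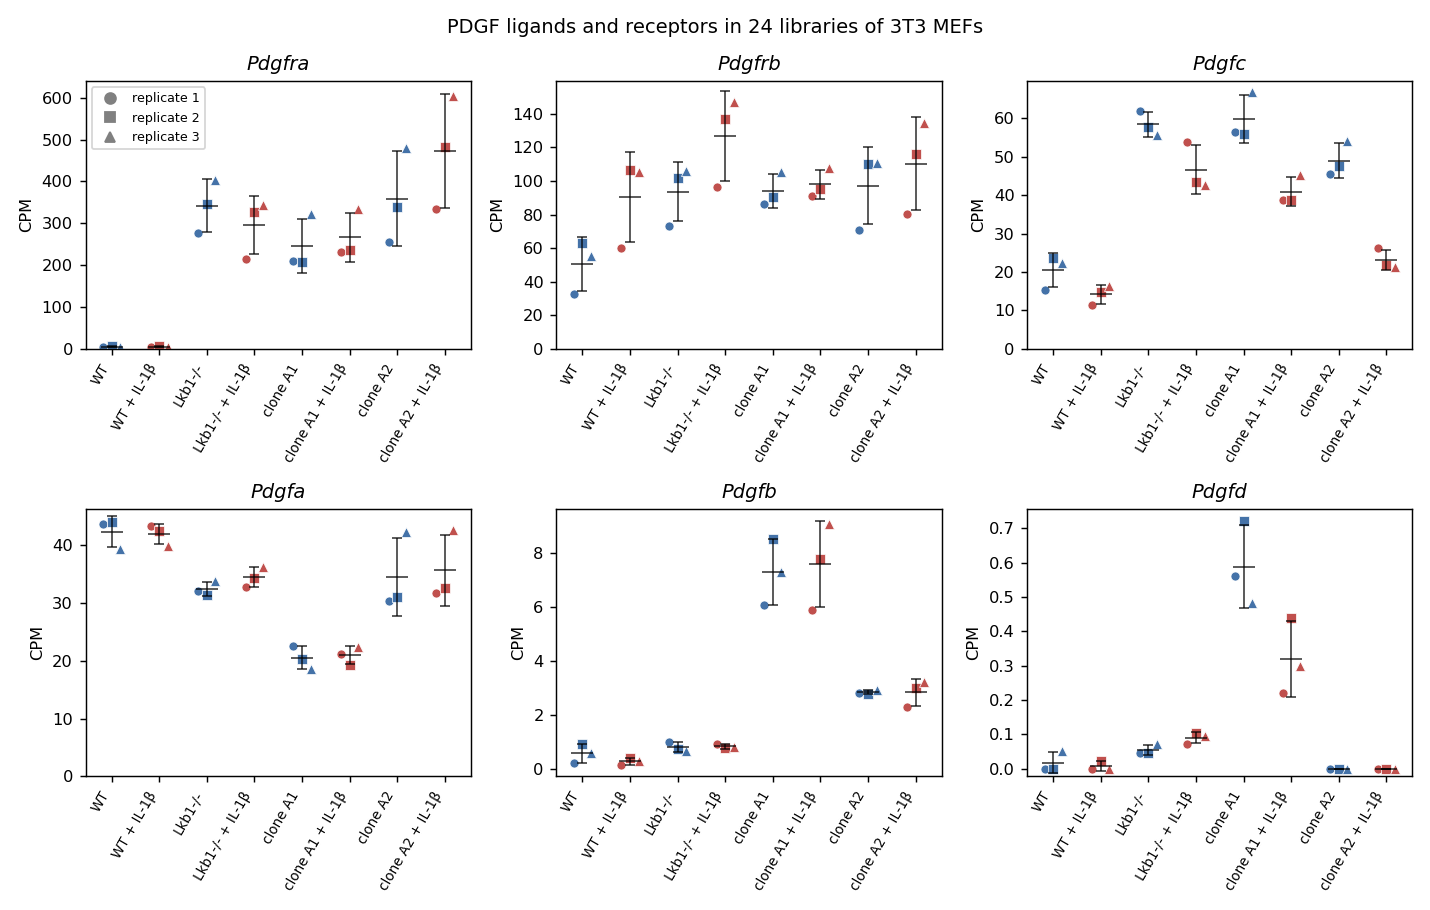
CPM (scaled by TMM) of the 6 genes on linear axes, 1 panel per gene, in 24 libraries of 8 groups. Points are libraries (shape gives the replicate number, blue untreated, red IL-1β) and black bars are the mean ± SD of 3 libraries. Pdgfra is near the base line in WT MEFs and at 208 CPM or more in the other 3 genotypes, Pdgfb is highest in clone A1, and Pdgfd has reads mainly in clone A1.

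Pdgfra was the member with the largest change in Lkb1-/- MEFs. The gene encodes PDGFRα and lies at chr5:75152292-75198215 on the plus strand (GRCm38). In untreated WT MEFs its level was 3.71, 5.66 and 4.36 CPM in replicates 1, 2 and 3, and in untreated Lkb1-/- MEFs it was 276, 346 and 403 CPM. Every Lkb1-/- library was thus far above every WT library, and the fold change was 74.6 (log2 fold change 6.22 ± 0.32 SE, edgeR quasi-likelihood FDR = 6.78e-13). After IL-1β the levels were 4.49, 6.09 and 5.35 CPM in WT and 216, 326 and 343 CPM in Lkb1-/- MEFs, a 55.4-fold difference (log2 5.79 ± 0.32 SE, FDR = 1.59e-12). From replicates 2 and 3 alone the log2 fold changes were 6.22 and 5.86.

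Both clones kept a high Pdgfra level. Untreated clone A1 had 209, 208 and 321 CPM and untreated clone A2 had 255, 340 and 480 CPM, ranges that overlap the one of Lkb1-/- MEFs. Against WT MEFs the level was 53.8-fold higher in clone A1 and 78.3-fold higher in clone A2 (FDR = 1.94e-12 and 4.98e-13), with log2 fold changes of 5.72 and 6.35 from replicates 2 and 3 alone. Against untreated Lkb1-/- MEFs the log2 difference was -0.47 ± 0.25 SE in clone A1 (FDR = 0.152) and 0.07 ± 0.25 in clone A2 (FDR = 0.869), and neither passed the test. From replicates 2 and 3 alone the differences were -0.50 (FDR = 0.0729) and 0.13 (FDR = 0.668). The first was called when the other groups were left out of the fit (FDR = 0.0448) and without a filter (3.34e-08), in a range from 3.34e-08 to 0.394 over 34 alternatives. After IL-1β clone A1 had 232, 235 and 335 CPM, and its difference from Lkb1-/- MEFs was not called (log2 -0.14 ± 0.25 SE, FDR = 0.705). From replicates 2 and 3 alone it was -0.23 (FDR = 0.413). Clone A2 after IL-1β reached 333, 483 and 605 CPM, which was 1.61-fold above Lkb1-/- MEFs (log2 0.68 ± 0.25 SE, FDR = 0.0393), although the lowest library of A2 lay below the highest of Lkb1-/- MEFs. Replicates 2 and 3 alone kept the call of clone A2 (log2 0.70, FDR = 0.0164). It was lost without Lkb1-/- IL-1β replicate 1 (FDR = 0.175) or 2 (0.0569), without clone A2 IL-1β replicate 2 (0.0611) or 3 (0.179), and when the other groups were left out of the fit (0.0637), and over all 34 alternatives the FDR ran from 5.21e-15 to 0.179.

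The promoter of Pdgfra is shown because Pdgfra and Pdgfc had the largest rises among the members called in untreated Lkb1-/- MEFs, and because CRTC2 works with CREB, a factor that binds the cAMP response element (CRE). The window runs from 250 bases before the RefSeq start site to 50 bases after it (GRCm38.p6, chr5:75152001-75152300, plus strand). Capitals mark a match to the CRE half-site TGACG, which here reads on the opposite strand and begins at position -218 from the start site.
Pdgfra: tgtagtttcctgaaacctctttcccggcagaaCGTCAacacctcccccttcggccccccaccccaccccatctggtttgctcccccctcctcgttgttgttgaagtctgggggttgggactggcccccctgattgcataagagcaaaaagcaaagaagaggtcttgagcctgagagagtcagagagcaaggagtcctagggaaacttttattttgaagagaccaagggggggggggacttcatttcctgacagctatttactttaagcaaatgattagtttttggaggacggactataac
The full CRE TGACGTCA, which contains the half-site, the AP-1 site TGANTCA and the NF-κB motif were searched on both strands as well and had no match in this window. Over all 32851 promoter windows of the same length, 20.8% held the half-site, 1.79% the full CRE, 7.81% the AP-1 site and 11.2% the NF-κB motif. The half-site is common, and a match is a description of the letters, not of binding.

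Pdgfrb, which encodes PDGFRβ, rose less. It lies at chr18:61045150-61085061 on the plus strand. Untreated WT libraries had 32.5, 63.3 and 55.5 CPM and untreated Lkb1-/- libraries 73.4, 102 and 106 CPM, so that the ranges did not overlap (1.86-fold, log2 0.89 ± 0.25 SE, FDR = 0.00483). Replicates 2 and 3 alone gave a log2 fold change of 0.81. After IL-1β the levels were 59.8, 107 and 105 CPM in WT and 96.2, 137 and 147 CPM in Lkb1-/- MEFs. These ranges overlapped through Lkb1-/- replicate 1, and the log2 difference of 0.48 ± 0.25 SE did not pass the test (FDR = 0.106). Replicate numbers paired these libraries, and with the number as a block the difference was called (log2 0.50 ± 0.11 SE, FDR = 4.28e-04). Without Lkb1-/- IL-1β replicate 1 (0.0463), under upper quartile scaling (0.0328), and without a filter (9.75e-09) it was called as well, as it was from replicates 2 and 3 alone (log2 0.42, FDR = 8.32e-04), in a range from 9.75e-09 to 0.419. Clones A1 and A2 had 86.3 to 105 and 70.9 to 111 CPM untreated, and their log2 differences from Lkb1-/- MEFs were 0.0045 ± 0.25 SE (FDR = 0.993) and 0.05 ± 0.25 SE (FDR = 0.900), or -0.09 (FDR = 0.475) and 0.09 (FDR = 0.472) from replicates 2 and 3 alone. After IL-1β clone A1 had 91.1, 95.2 and 108 CPM and differed from Lkb1-/- MEFs by -0.37 on the log2 scale, uncalled at FDR = 0.274 and called with the block at FDR = 0.0141 and from replicates 2 and 3 alone at FDR = 5.30e-04. The difference of clone A2 after IL-1β was -0.20 (FDR = 0.597), or -0.18 from replicates 2 and 3 alone (FDR = 0.129), and was not called.

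Per base of exon, the receptors changed order. Levels divided by exon length can be compared roughly between genes. The length joins all annotated exons of a gene and may differ from that of the transcripts present. On this scale untreated WT MEFs had 0.456 ± 0.099 CPM per kb of Pdgfra and 9.21 ± 2.92 of Pdgfrb (SD, n = 3). Untreated Lkb1-/- MEFs had 34.1 ± 6.35 and 17.1 ± 3.23. The ratio of Pdgfra to Pdgfrb, taken within each library, was therefore 0.0514 ± 0.0099 in WT and 1.998 ± 0.121 in Lkb1-/- MEFs. The ratio in untreated clone A1 was 1.42 ± 0.22, below every Lkb1-/- library, and in clone A2 it was 2.01 ± 0.35, which overlapped Lkb1-/- MEFs. IL-1β went with a lower ratio in WT (0.0334 ± 0.0069) and in Lkb1-/- MEFs (1.27 ± 0.04), and the ratio after IL-1β was 1.48 ± 0.19 in clone A1 and 2.33 ± 0.11 in clone A2. A two-sided exact permutation test over 3 against 3 libraries cannot go below p = 0.1, which was the value for Lkb1-/- against WT, for clone A1 against Lkb1-/- and for IL-1β in WT and in Lkb1-/- MEFs (0.175 after Benjamini-Hochberg adjustment over 7 comparisons). The p was 0.5 for IL-1β in clone A1, 0.3 in clone A2 and 1.0 for untreated clone A2 against Lkb1-/- MEFs.

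**Figure D2:**
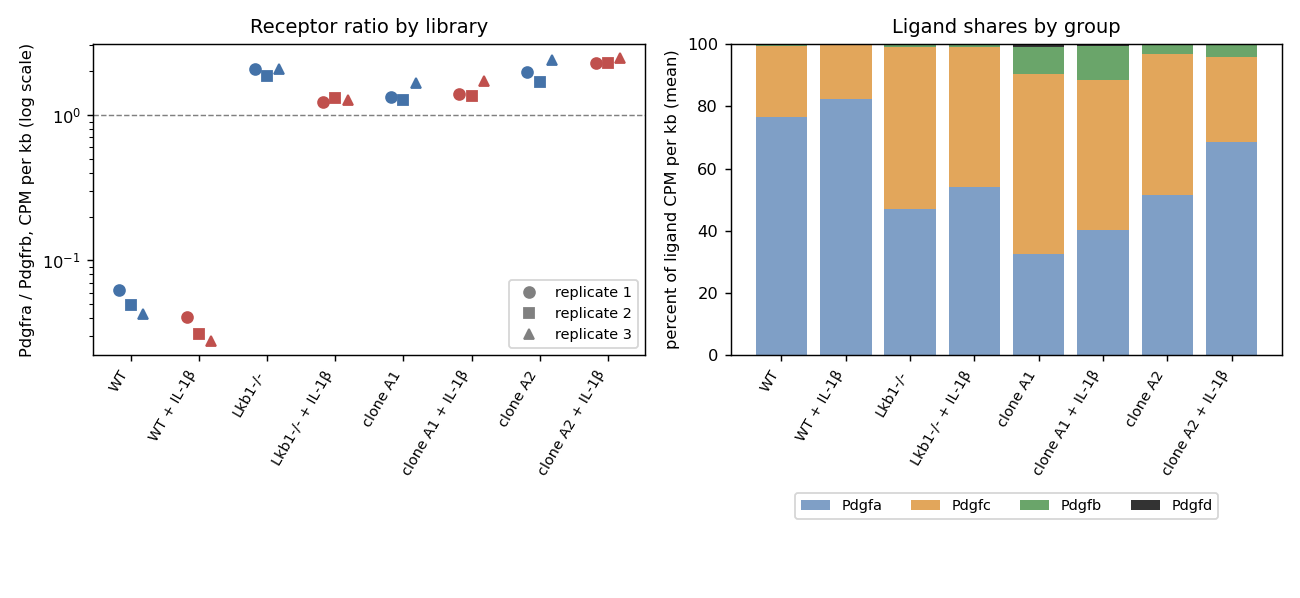
Left, Pdgfra over Pdgfrb in CPM per kb of exon for each of 24 libraries on a log axis, with the dashed line at equal levels and shapes for replicate numbers. Right, the mean percent that each ligand contributes to the summed ligand CPM per kb in each group (bars stack to 100%). WT libraries lie below 0.07 and all others above 1.2, and the share of Pdgfa is 76.65% in untreated WT and 47.1% in untreated Lkb1-/- MEFs.

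Of the 6 members 4 were called between untreated Lkb1-/- and WT MEFs, 3 higher and 1 lower, where 55.9% of all genes tested were called. After IL-1β 5 were called, 4 higher and 1 lower, against 57.4% of all genes. More than 55% of genes differed between these cells, so these counts lie near the background and say little about the members as a group. Markers of pericytes and smooth muscle moved with these results. Their summed level over 9 genes, of which 6 were tested, was 660 to 994 CPM in untreated WT libraries, 78.7 to 97.0 in untreated Lkb1-/- MEFs, 83.7 to 109 in clone A1 and 42.2 to 51.6 in clone A2. Acta2 made up most of it in WT, at a mean of 546 CPM against 15.8 in Lkb1-/- MEFs, and Cspg4 (191 and 18.5) and Tagln (9.63 and 2.20) were lower in Lkb1-/- MEFs too. The means of Mcam (42.5 and 49.5), Des (0.0781 and 0.311), Rgs5 (0.0174 and 0.0546) and Myh11 (0.0327 and 0.161) were higher there, and Abcc9 was at 3 counts or fewer throughout. Of the fibroblast markers, whose summed level overlapped between untreated WT and Lkb1-/- libraries, the mean of Dcn was 0.411 CPM in WT and 218 in Lkb1-/- MEFs and those of Fn1 640 and 2014 and of Col3a1 479 and 658, while the means of Col1a2 (780 and 63.0), Col1a1 (2378 and 1485), Vim (3208 and 2462) and S100a4 (2.26 and 0.906) were lower in Lkb1-/- MEFs. Summed over 5 markers each, endothelial genes were at 0.424 to 0.678 CPM in untreated WT and 2.45 to 2.85 in untreated Lkb1-/- libraries, mostly Kdr, epithelial genes at 2.16 to 2.93 and 0.719 to 1.26, and macrophage and leukocyte genes at 2.44 to 3.997 and 4.43 to 6.04, with Csf1r at means of 0.0464 and 1.68. The part of these marker shifts in the receptor results was not tested. In bulk RNA, fewer cells of a type and less RNA per cell cannot be told apart.

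Pdgfc was the one ligand called higher in untreated Lkb1-/- than in WT MEFs, and Pdgfb and Pdgfd were also called higher after IL-1β. PDGF-C is secreted in a latent form that proteases must cut before it can bind PDGFRα. The gene lies at chr3:81036416-81214040 on the plus strand. Untreated WT libraries had 15.3, 23.5 and 22.4 CPM and untreated Lkb1-/- libraries 62.0, 57.7 and 55.6 CPM, with no overlap and a 2.86-fold difference (log2 1.52 ± 0.15 SE, FDR = 1.54e-08). After IL-1β WT had 11.5, 14.7 and 16.4 CPM and Lkb1-/- MEFs 53.9, 43.4 and 42.7 CPM (3.29-fold, FDR = 2.89e-09). Untreated clones A1 (55.9 to 66.9 CPM) and A2 (45.5 to 54.0 CPM) were 2.93- and 2.40-fold above WT (FDR = 1.19e-08 and 1.84e-07), and against Lkb1-/- MEFs the log2 differences of 0.03 ± 0.14 SE (FDR = 0.891) and -0.25 ± 0.14 SE (FDR = 0.191) were not called. The second was called without a filter (FDR = 0.0270) and with only the groups compared (0.0363), in a range from 0.0270 to 0.462 over 34 alternatives. After IL-1β clone A2 had 26.2, 21.8 and 21.3 CPM, below every Lkb1-/- library (2.02-fold, log2 -1.01 ± 0.15 SE, FDR = 1.80e-05), and was called in all 34 alternatives, while clone A1 with 38.6 to 45.2 CPM was not (log2 -0.19 ± 0.14 SE, FDR = 0.336).

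The promoter window of Pdgfc is printed beside that of Pdgfra, as the member with the next largest called rise in untreated Lkb1-/- MEFs (GRCm38.p6, chr3:81036166-81036465, plus strand, with the same span around the start site). Capitals mark its single match to the NF-κB motif, which reads on both strands and begins at position -150.
Pdgfc: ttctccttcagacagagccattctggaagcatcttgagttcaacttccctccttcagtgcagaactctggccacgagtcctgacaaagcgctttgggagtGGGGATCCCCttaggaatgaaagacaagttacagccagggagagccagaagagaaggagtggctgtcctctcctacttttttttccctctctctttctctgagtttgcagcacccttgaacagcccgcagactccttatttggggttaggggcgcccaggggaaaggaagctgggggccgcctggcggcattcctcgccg
It held no CRE, half-site or AP-1 match. Of the other members, Pdgfd held the half-site at position 5. Of the 2 Pdgfa windows, 1 held the half-site at -205 and a match to the NF-κB motif as searched at -49, which reads GGAGGCTCCC. The other Pdgfa window held none of the 4. Windows were matched for 4 of the 6 members, and Pdgfb and Pdgfrb are named only.

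Pdgfa fell slightly in Lkb1-/- MEFs and further in clone A1. PDGF-A signals through PDGFRα and is made by many cell types. The gene lies at chr5:138976014-138997370 on the minus strand. Its levels were 43.6, 44.1 and 39.3 CPM in untreated WT and 32.1, 31.3 and 33.8 CPM in untreated Lkb1-/- MEFs (log2 -0.39 ± 0.12 SE, FDR = 0.00753), all below WT. After IL-1β the difference was -0.28 ± 0.12 SE (FDR = 0.0457). This call near the threshold was lost with DESeq2 size factors (FDR = 0.0657), upper quartile scaling (0.165), a filter of 10 counts in every library (0.107), DESeq2 (0.0629) and replicates 2 and 3 alone (0.190), and 14 of the 24 fits with 1 library left out retained it. Over all 34 alternatives the FDR ran from 0.00577 to 0.190. Upper quartile scaling moved the median of all genes in this comparison by 0.10, which is the size by which it moved Pdgfa.

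In clone A1 Pdgfa was at 22.6, 20.3 and 18.6 CPM untreated and at 21.1, 19.3 and 22.4 CPM after IL-1β, below every library of the other genotypes. The difference from Lkb1-/- MEFs was 1.58-fold untreated (log2 -0.66 ± 0.12 SE, FDR = 1.61e-04) and 1.65-fold after IL-1β (log2 -0.72 ± 0.12 SE, FDR = 6.20e-05). Clone A2, with 30.3, 31.0 and 42.2 CPM untreated, did not follow, and its log2 difference from Lkb1-/- MEFs was 0.09 ± 0.12 SE (FDR = 0.608). Against WT, clone A2 was lower by -0.30 ± 0.12 on the log2 scale (FDR = 0.0330), a call lost under upper quartile scaling (0.0871), when only these groups were fitted (0.0786), with replicates 2 and 3 alone (0.256) and without WT replicate 1 (0.0858) or 2 (0.0960) or clone A2 replicate 1 (0.0683) or 2 (0.0717), in an FDR range from 3.46e-04 to 0.256 over 34 alternatives.

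Pdgfb was low in WT and Lkb1-/- MEFs and higher in both clones. PDGF-B is the ligand that binds both receptors, and in tissue it is known from endothelium and platelets. The gene lies at chr15:79995874-80014977 on the minus strand. WT libraries had 0.201, 0.921 and 0.574 CPM untreated and Lkb1-/- libraries 0.996, 0.742 and 0.643 CPM, which overlapped (log2 0.50 ± 0.35 SE, FDR = 0.248). The sign of this difference was not stable, since replicates 2 and 3 alone gave -0.12 (FDR = 0.701), and without WT replicate 2 it was called at 1.06 (FDR = 0.0212), in an FDR range from 0.0212 to 0.852. After IL-1β WT had 0.148, 0.397 and 0.284 CPM and Lkb1-/- MEFs 0.912, 0.769 and 0.792 CPM, without overlap (2.94-fold, log2 1.56 ± 0.39 SE, FDR = 0.00178).

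Untreated clone A1 reached 6.07, 8.52 and 7.28 CPM of Pdgfb, a 9.14-fold increase over Lkb1-/- MEFs (log2 3.19 ± 0.31 SE, FDR = 1.31e-07). Untreated clone A2 had 2.82, 2.78 and 2.93 CPM, a 3.57-fold increase (log2 1.83 ± 0.31 SE, FDR = 1.26e-04). In both clones all libraries lay above all Lkb1-/- libraries, and after IL-1β the increases were 9.18-fold and 3.42-fold (FDR = 1.17e-07 and 1.65e-04). Both clones were called in all 33 alternatives that tested the gene. The clones also differed from each other, with clone A2 lower by -1.36 ± 0.28 on the log2 scale untreated (FDR = 7.68e-04).

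Pdgfd, the ligand of PDGFRβ that like PDGF-C needs cutting by proteases, was at the limit of detection outside clone A1. The gene lies at chr9:6168584-6378850 on the plus strand and holds Ddi1 within it on the other strand, and only read pairs of its own strand were counted. WT libraries had 0, 0 and 2 read pairs untreated and 0, 1 and 0 after IL-1β, and Lkb1-/- libraries had 2, 2 and 3 untreated and 3, 5 and 4 after IL-1β. Clone A1 had 23, 30 and 21 read pairs untreated and 9, 19 and 12 after IL-1β, while clone A2 had 0 in all 6 libraries. Scaled for library size, the summed counts of clone A1 were 10.8 times those of Lkb1-/- MEFs untreated (exact 95% interval 5.002 to 27.9, for counting error only, log2 3.37 ± 0.53 SE in the fit, FDR = 9.30e-05) and 3.53 times after IL-1β (1.81 to 7.39, FDR = 0.0115). The second call was lost without clone A1 IL-1β replicate 2 (FDR = 0.0664), in a range from 0.00542 to 0.0664.

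With a count of 0 set to a floor of 3 counts per library, Pdgfd was at least 9.004-fold lower in clone A2 than in clone A1 untreated (FDR = 3.88e-06) and at least 4.71-fold lower after IL-1β (FDR = 3.93e-05). Clone A2 was also called against Lkb1-/- MEFs (FDR = 0.0146 untreated and 0.00323 after IL-1β), where no fold is given because both groups were at or near the floor, and replicates 2 and 3 alone did not keep the untreated call (FDR = 0.0603). After IL-1β Lkb1-/- MEFs were called above WT (FDR = 0.00983), with 12 read pairs in all against 1 and no fold given for the same reason, a call also lost with replicates 2 and 3 alone (FDR = 0.0555). Untreated, the same pair was not called (FDR = 0.153), except without WT replicate 3 (FDR = 0.0172).

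**Figure D3:**
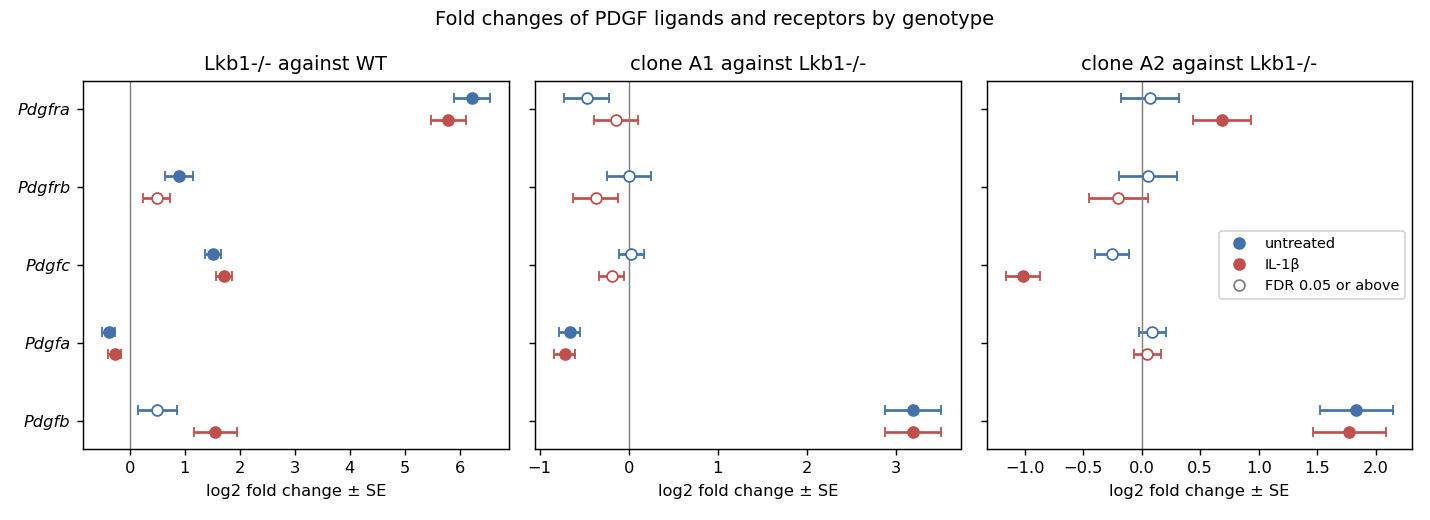
Log2 fold changes (x axis, with SE bars from the edgeR fit) of 5 members in Lkb1-/- against WT MEFs and in each clone against Lkb1-/- MEFs, untreated in blue and after IL-1β in red, and open circles have FDR of 0.05 or above. The Pdgfra change of 6.22 in Lkb1-/- MEFs and the Pdgfb changes of 3.19 in clone A1 and 1.83 in clone A2 stand out, and x axes differ between panels. Pdgfd is left out because of its counts of 0.

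Read against the background, clone A1 had 3 of 6 members called against Lkb1-/- MEFs untreated and 3 after IL-1β (Pdgfa, Pdgfb and Pdgfd), where 35.3% and 36.7% of all genes were called. With the replicate block, which applies after IL-1β, 49.1% of all genes were called and Pdgfrb joined them. Clone A2 had 2 of 6 called untreated (Pdgfb and Pdgfd, background 32.3%) and 4 after IL-1β (Pdgfb, Pdgfc, Pdgfd and Pdgfra, background 32.8%). The comparisons of both clones share their Lkb1-/- libraries. Against untreated WT, 6 of 6 members were called in clone A1 and 5 of 6 in clone A2, with backgrounds of 55.4% and 60.6%. Between the clones 3 members were called untreated (Pdgfa, Pdgfb and Pdgfd, background 32.5%) and 5 after IL-1β (all but Pdgfrb, background 30.7%). Pdgfrb was called there only from replicates 2 and 3 alone (log2 0.31, FDR = 0.0131). Untreated Pdgfc was called between the clones without a filter (FDR = 0.0146), with only the groups compared (0.0475) and from replicates 2 and 3 alone (0.0295). Only Pdgfb was called higher than in Lkb1-/- MEFs in both clones under both treatments.

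On the per-length scale the ligands were carried by Pdgfa and Pdgfc. Untreated WT MEFs had 13.6 ± 0.84 CPM per kb of Pdgfa and 4.01 ± 0.88 of Pdgfc, and untreated Lkb1-/- MEFs had 10.4 ± 0.41 and 11.5 ± 0.64 (SD, n = 3). The order of these ligands was thus Pdgfa over Pdgfc in WT without overlap, and in Lkb1-/- MEFs each Pdgfc value lay just above each Pdgfa value. The latter margin is narrow and may depend on the exon lengths used. In untreated clone A1 Pdgfc led, with 11.7 ± 1.22 against 6.58 ± 0.64, as it did after IL-1β, with 8.03 ± 0.73 against 6.72 ± 0.50. Pdgfa had the higher mean, with overlapping libraries, in Lkb1-/- MEFs after IL-1β (11.1 ± 0.55 against 9.16 ± 1.23) and in untreated clone A2 (11.1 ± 2.15 against 9.63 ± 0.88). In clone A2 after IL-1β Pdgfa led without overlap, with 11.4 ± 1.95 against 4.54 ± 0.53. Pdgfb made up 0.751% ± 0.444 of the summed ligand level in untreated WT, 0.862% ± 0.177 in Lkb1-/- MEFs, 8.66% ± 1.56 in clone A1 and 3.23% ± 0.35 in clone A2.

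Libraries given IL-1β, an inflammatory cytokine, had less Pdgfc and more Pdgfrb than the untreated libraries of the same replicate number in every genotype. Pdgfc was lower in the IL-1β library than in the untreated library of the same number in 12 of 12 pairs, and Pdgfrb was higher in 12 of 12. In clone A1 the Pdgfrb log2 ratios were only 0.03 to 0.08. Pdgfa was higher in 8 of 12 pairs, Pdgfb in 5 and Pdgfra in 9. How many of all genes had the same sign in 12 of 12 pairs was not counted. The fit without pairing called Pdgfc in clone A2 alone, where it went from 45.5, 47.6 and 54.0 to 26.2, 21.8 and 21.3 CPM (2.12-fold, log2 -1.09 ± 0.15 SE, FDR = 4.71e-05), with no overlap. The log2 changes of Pdgfc elsewhere were -0.52 ± 0.15 SE in WT (FDR = 0.0779), -0.33 ± 0.14 in Lkb1-/- MEFs (FDR = 0.276) and -0.55 ± 0.14 in clone A1 (FDR = 0.0511). In that fit 0 of 6 members were called in WT, Lkb1-/- MEFs or clone A1 by edgeR (3, 1 and 1 at an unadjusted p under 0.05, and 2, 0 and 1 by DESeq2) and 1 in clone A2, where 2.26%, 4.74%, 1.99% and 5.68% of all genes were called.

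Replicate numbers paired the libraries in each of these 4 comparisons, and the block raised the background to 9.30% in WT, 14.8% in Lkb1-/- MEFs, 9.61% in clone A1 and 17.9% in clone A2. With the block Pdgfc was also called in WT (log2 -0.52 ± 0.14 SE, FDR = 0.0198) and in clone A1 (-0.55 ± 0.13, FDR = 0.00687), and not in Lkb1-/- MEFs (-0.32 ± 0.13, FDR = 0.0936), where replicates 2 and 3 alone called it (-0.40, FDR = 0.0160). Without the block, leaving out untreated WT replicate 1 (FDR = 0.00697) or IL-1β WT replicate 3 (0.0471) called it in WT, and leaving out replicate 1 of untreated WT (0.0182), or of IL-1β-treated WT (0.0359), Lkb1-/- (0.0418) or clone A2 (0.0474) called it in clone A1. Pdgfrb was called in WT (log2 0.84 ± 0.12 SE, FDR = 2.53e-05) and in Lkb1-/- MEFs (0.43 ± 0.11, FDR = 0.00980), with 0.06 ± 0.11 (FDR = 0.819) in clone A1 and 0.18 ± 0.11 (FDR = 0.306) in clone A2. From replicates 2 and 3 alone and without the block, Pdgfrb was likewise called in WT (FDR = 9.87e-05) and Lkb1-/- MEFs (FDR = 0.00473). That alternative was chosen after replicate 1 was seen to hold the lowest Pdgfrb level, so it gives no independent support. Leaving out only IL-1β WT replicate 1 called Pdgfrb in WT (FDR = 0.0295). The block also applies to Lkb1-/- against WT MEFs after IL-1β, where 65.9% of all genes were then called.

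**Figure D4:**
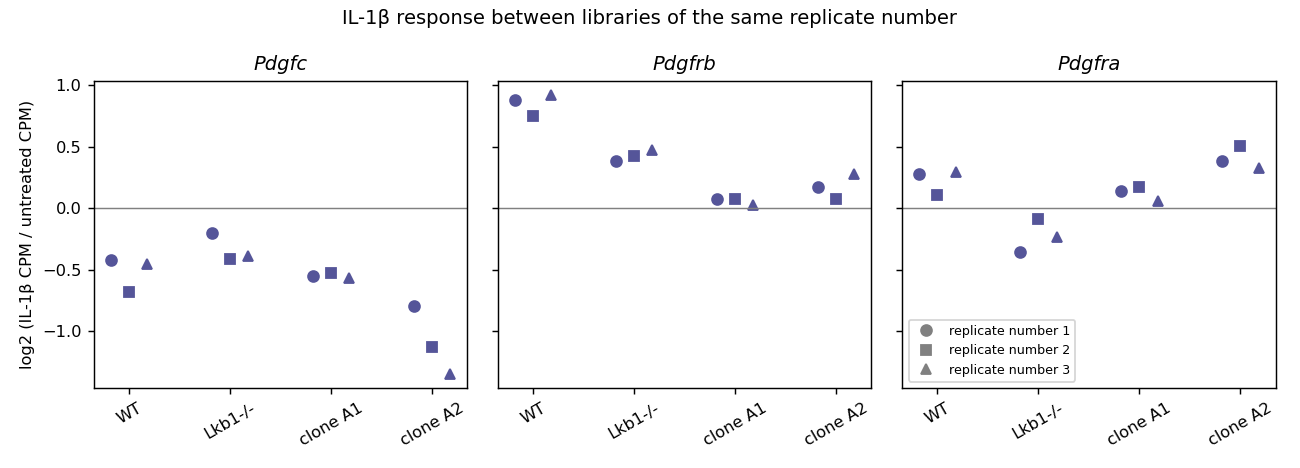
Log2 ratio of CPM after IL-1β to CPM untreated between libraries of the same replicate number (y axis), for 3 members in 4 genotypes, with shapes for replicate numbers and the line at no change. All 12 Pdgfc points lie below 0 and all 12 Pdgfrb points above it, and Pdgfra points lie below 0 in Lkb1-/- MEFs and above it in the other 3 genotypes.

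The direction of the Pdgfra difference varied with genotype, but the test of that difference was not passed. By replicate number it was lower after IL-1β in 3 of 3 pairs of Lkb1-/- MEFs, with a median log2 ratio of -0.23, and higher in 3 of 3 pairs of WT (0.28), clone A1 (0.14) and clone A2 (0.39). In the fit without pairing the change was -0.21 ± 0.25 SE in Lkb1-/- MEFs (FDR = 0.783) and 0.40 ± 0.25 in clone A2 (FDR = 0.451), and with the block clone A2 was called (0.41 ± 0.11, FDR = 0.0120). The responses themselves were compared by interaction terms. For Pdgfra they differed by -0.43 ± 0.40 SE between Lkb1-/- and WT MEFs, by 0.33 ± 0.35 between clone A1 and Lkb1-/- MEFs and by 0.62 ± 0.35 between clone A2 and Lkb1-/- MEFs, each at FDR = 1.00. For Pdgfc the response of clone A2 was lower than that of Lkb1-/- MEFs by -0.76 ± 0.20 (unadjusted p = 0.00126, FDR = 0.851).

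No member was called in any of the 3 response comparisons by edgeR with the filter or by DESeq2, and without a filter Pdgfc and Pdgfra were called for clone A2 minus Lkb1-/- MEFs (FDR = 4.42e-05 and 5.50e-05). With the filter 0, 0 and 1 members had an unadjusted p under 0.05. Few genes were called at all, with 0.245% for Lkb1-/- minus WT, 0.0285% for clone A1 minus Lkb1-/- and 0.0% for clone A2 minus Lkb1-/- MEFs (388 genes at an unadjusted p under 0.05, and 10 called by DESeq2). A response that passed in one genotype and not in another was thus not shown to differ. Pdgfa and Pdgfb showed no response past the test in any genotype, with log2 changes between -0.02 and 0.09 for Pdgfa, and in WT -1.01 ± 0.41 for Pdgfb (FDR = 0.304). Replicates 2 and 3 alone called the Pdgfb change in WT (-1.13, FDR = 0.0349), as did the fit without WT replicate 1 (FDR = 0.0262), in an FDR range from 0.0262 to 0.931.

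Genes that prepare PDGF ligands or assist their receptors changed in both directions. Of 10 listed genes 8 were tested (all but Pcsk5 and St14), and between untreated Lkb1-/- and WT MEFs 4 were called higher and 3 lower, with a median log2 fold change of 0.28 against 0.04 over all genes tested, of which 55.9% were called. Plat, the tissue plasminogen activator that cuts latent PDGF-C, rose from 40.6 ± 1.65 to 96.1 ± 12.5 CPM (2.37-fold, FDR = 1.45e-08), and the co-receptors Lrp1 and Nrp1 rose 2.10- and 1.82-fold (FDR = 1.20e-08 and 1.35e-07). Furin and Pcsk6, convertases that cut the PDGF-A and PDGF-B precursors, fell from 303 ± 23.2 to 122 ± 9.44 CPM and from 7.49 ± 0.85 to 0.0625 ± 0.0368 CPM, and Sparc, which binds PDGF-B, fell 1.54-fold (FDR = 0.00628). Against untreated Lkb1-/- MEFs, clone A1 had 4 higher and 3 lower (median 0.10) and clone A2 had 1 higher and 3 lower (median -0.27), with a median of 0.02 over all genes in both and 35.3% and 32.3% of all genes called. Nrp1 fell in both clones (1.58- and 2.41-fold, FDR = 1.69e-05 and 6.87e-09).

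Of the proteins that bind activated PDGF receptors or are recruited through those that do, 19 of 19 were tested, and 5 were called higher and 7 lower in untreated Lkb1-/- against WT MEFs (median -0.08 against 0.04), where 55.9% of all genes were called. Plcg1 rose 2.21-fold (FDR = 1.70e-09). Of the PI 3-kinase subunits, the regulatory Pik3r2 rose 1.89-fold (FDR = 4.67e-08) and Pik3r1 fell 1.58-fold (FDR = 2.61e-04), and the catalytic Pik3cb fell 2.75-fold (FDR = 1.21e-12) while Pik3ca had a log2 fold change of 0.06 (FDR = 0.697). Pik3r1 and Pik3ca were named after their values were seen. Clone A1 had 6 higher and 5 lower against Lkb1-/- MEFs (median -0.04) and clone A2 had 4 higher and 2 lower (median 0.04), with backgrounds of 35.3% and 32.3%, and Pik3cb went up 2.06-fold in clone A1 and down 1.25-fold in clone A2 (FDR = 3.26e-09 and 0.00291).

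Negative regulators of receptor signaling, 10 of 10 tested, had 4 members higher and 5 lower in untreated Lkb1-/- against WT MEFs (median -0.01 against 0.04), beside 55.9% of all genes called. Of the Sprouty genes, which encode feedback inhibitors of receptor tyrosine kinases, Spry2 and Spry4 fell 4.74- and 4.24-fold (FDR = 4.23e-11 and 4.59e-08), while Spry1 rose from 0.0248 ± 0.0262 to 0.872 ± 0.212 CPM (FDR = 4.06e-07). Against Lkb1-/- MEFs clone A1 had 2 higher and 3 lower (median -0.28), and clone A2 had 3 lower (median -0.14), or 5 called with the replicate block, beside 35.3% and 32.3% of all genes without it and 45.9% with it in clone A2.

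Genes known to be induced early by PDGF in fibroblasts, 11 of 11 tested, had 6 members higher and 2 lower in untreated Lkb1-/- against WT MEFs, with a median of 0.53 against 0.04 and 55.9% of all genes called. Has2, which makes hyaluronan, rose 23.3-fold (FDR = 5.62e-14), the transcription factors Egr3 and Egr1 rose 8.38- and 4.44-fold (FDR = 1.21e-09 and 2.93e-04), and Myc and Ier2 fell 1.86- and 1.28-fold (FDR = 2.25e-06 and 0.0121). In clone A1 2 were higher and 4 lower than in Lkb1-/- MEFs (median -0.64), and in clone A2 1 was higher and 3 lower (median -0.36), beside 35.3% and 32.3% of all genes, with the chemokine Ccl2 up in both (3.07- and 1.48-fold, FDR = 4.67e-10 and 2.46e-04). These genes respond to many signals other than PDGF, and which one acted here was not tested.

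After IL-1β Nrp1 fell in 4 of 4 genotypes, by 0.42 to 0.73 on the log2 scale, and Ccl2 and Cxcl1, known targets of IL-1β, rose in 4 of 4. In the order WT, Lkb1-/-, clone A1 and clone A2, ligand processing and co-receptors had 1, 1, 2 and 2 calls (2, 3, 3 and 5 with the block), the receptor-proximal signaling proteins 1, 1, 1 and 0 (4, 4, 4 and 5), the negative regulators 0, 0, 0 and 0 (0, 2, 1 and 4), the early genes 2, 2, 2 and 4 (5, 5, 4 and 6) and the related kinases below 0, 2, 0 and 2 (0, 2, 1 and 2), where 2.26%, 4.74%, 1.99% and 5.68% of all genes were called and 9.30%, 14.8%, 9.61% and 17.9% with the block.

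The PDGF receptor genes sit beside related kinases in the genome, with Kit and Kdr after Pdgfra on chromosome 5 and Csf1r after Pdgfrb on chromosome 18. Of 6 related kinases 5 were tested (all but Kit), and 3 were higher and 1 lower in untreated Lkb1-/- than in WT MEFs (median 2.56 against 0.04), beside 55.9% of all genes. Csf1r, which lies 15.5 kb past the end of Pdgfrb, went from 0.0464 ± 0.0205 to 1.68 ± 0.51 CPM (FDR = 6.01e-10), and Kdr, 735 kb past Pdgfra, rose 6.64-fold to 2.60 ± 0.19 CPM (FDR = 2.58e-08). Flt1, a VEGF receptor, fell 15.4-fold from 122 ± 11.6 to 7.88 ± 0.87 CPM (FDR = 1.80e-14). In each clone 2 were higher and 1 lower than in Lkb1-/- MEFs (medians 0.36 and 0.08), beside 35.3% and 32.3% of all genes, with Flt1 up 2.60- and 2.22-fold (FDR = 7.23e-07 and 9.29e-06).

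Nearest tested protein-coding neighbors moved with some members and not with others in untreated Lkb1-/- against WT MEFs. Chic2, 108 kb before Pdgfra, had a log2 fold change of 0.18 ± 0.10 SE (FDR = 0.141), beside 6.22 for Pdgfra. Glrb, 123 kb before Pdgfc, rose with it (log2 2.57 ± 0.32 SE, FDR = 5.75e-07), and Ctso, 719 kb after it, had -0.37 ± 0.24 (FDR = 0.204). Fam20c, 166 kb from Pdgfa, was lower by -1.11 ± 0.15 (FDR = 2.48e-06). Prkar1b, 19.9 kb from Pdgfa on the other side, was not called (FDR = 0.119), and Slc6a7, 30.9 kb before Pdgfrb, was called higher (FDR = 7.08e-05), as was Csf1r after it. Around Pdgfd, Casp12 had -3.05 ± 0.27 (FDR = 4.69e-09) and Dync2h1 0.58 ± 0.08 (FDR = 2.06e-06). Around Pdgfb, which rose in the clones, Cbx7 at 24.8 kb was 0.62 ± 0.11 higher in clone A2 than in Lkb1-/- MEFs (FDR = 2.38e-04) with -0.10 ± 0.11 in clone A1 (FDR = 0.558), and Rpl3 at 62.8 kb had -0.09 ± 0.09 in clone A2 and -0.04 ± 0.09 in clone A1 (FDR = 0.543 and 0.817).

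The genes most like each member were found by Pearson's r over the 8 group means of log2 CPM, among 2315 genes that varied between groups. For Pdgfra they were Fchsd1 (r = 0.999), Zfp13 (0.999) and Cd1d1 (0.999), and with a step of this size between WT and the rest many genes reach a high r. For Pdgfc they were Cep83os (0.960), Cd248 (0.960) and Dlc1 (0.958), for Pdgfa Sall1 (0.977), Apobec1 (0.966) and Gcnt2 (0.962), and for Pdgfrb the complement gene C3 (0.959), Chil1 (0.949) and C1s1 (0.944). Pdgfb and Pdgfd were too low for this search. Among the members, r was 0.77 for Pdgfra with Pdgfc, 0.75 for Pdgfra with Pdgfrb and -0.87 for Pdgfa with Pdgfb. These are descriptions over 8 points that share genotypes and libraries, and they carry no test.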

How the data were processed

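Per the labels and the study's methods, the authors trimmed paired reads with Trim Galore 0.6.0, aligned them with STAR 2.7.8a to GRCm38.p6 with GENCODE annotation, and deposited raw gene counts of read pairs, unstranded and by strand. The labels and methods name different library kits, so the kit is not settled. Counts of the second strand were taken (95.5% to 95.95% of stranded pairs), and 4 lines naming no gene (26.7% to 34.4% of pairs) were left out. Genes passing filterByExpr (minimum count 10, total 15) were scaled by TMM and fitted over all 24 libraries with 1 coefficient per group by the quasi-likelihood test of edgeR 4.0.16 in its older form, which was tested on simulated data, and Benjamini-Hochberg FDR under 0.05 was called. SE is the fold change over the root of F. Exon lengths, symbols and positions came from GENCODE M21. The members and gene lists were chosen with earlier results of these data known. Named genes were the members, Stk11, Crtc2, up to 3 called list genes per direction with the largest change in untreated Lkb1-/- against WT and each clone against Lkb1-/-, the nearest tested neighbors and the most alike genes.

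Replicate numbers were checked as pairs by correlating libraries' deviations from their group means. The 84 correlations were 0.0355 to 0.589, and every one passed 0.1 in 10 of 17 comparisons: IL-1β in each genotype, the genotype comparisons after IL-1β, untreated clone A2 against Lkb1-/-, and the response difference of clone A2. What the numbers mark is not stated. Alternatives were unstranded counts, DESeq2 size factors, upper quartile scaling, no filter, 10 counts in every library, the newer quasi-likelihood method, DESeq2 1.42.0, only the groups compared, the replicate block, and each library left out.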

Additional observations from a re-analysis of the deposited data

Results flagged for a closer look

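Some members differed between the 2 clones by the test of clone A2 against clone A1, so that the effects of the clones against Lkb1-/- MEFs differ. Untreated, Pdgfa was higher in clone A2 by 0.75 and Pdgfb lower by -1.36 on the log2 scale, and Pdgfd was at least 9.004-fold lower. After IL-1β, Pdgfa was higher by 0.76, Pdgfb lower by -1.42, Pdgfc lower by -0.82 and Pdgfra higher by 0.83, and Pdgfd was at least 4.71-fold lower. The Pdgfra call was lost without clone A1 IL-1β replicate 1 (FDR = 0.0640) or 2 (0.0690) or clone A2 IL-1β replicate 3 (0.0803), and replicates 2 and 3 alone kept it (log2 0.93, FDR = 0.00305). Untreated, Pdgfra differed by 0.54 (FDR = 0.104) and was called without clone A2 replicate 1 (0.0247) or clone A1 replicate 3 (0.0372). It was called as well without a filter (1.16e-09) and from replicates 2 and 3 alone (log2 0.63, FDR = 0.0270). Each value comes from 3 libraries of 1 clone against 3 of the other. The edit and the descent of each clone cannot be told apart.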

How the results depend on the processing

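Across 85 log2 fold changes of 5 members, 2873 values under alternatives gave 0 reversals of a called value, 30 lost calls and 55 gained calls, and for Pdgfd 3 calls were lost and 1 gained of 543. With at least 10 counts in every library, which removes Pdgfb and Pdgfd from the test, called members numbered 2 in Lkb1-/- against WT after IL-1β, 1 and 1 in clone A1 against Lkb1-/- untreated and after IL-1β, 0 and 2 in clone A2, and 1 and 3 between the clones. Without a filter they were 5 between the untreated clones, 2, 2, 1 and 2 for IL-1β in WT, Lkb1-/-, clone A1 and clone A2, and 2 for the response difference of clone A2. The replicate block gave 2, 1, 1 and 2 for IL-1β in that order, where 9.30%, 14.8%, 9.61% and 17.9% of all genes were called. Replicates 2 and 3 alone, chosen after seeing the data, gave 1 in untreated clone A2 against Lkb1-/-, 5 between the untreated clones, and 3, 2 and 1 for IL-1β in WT, Lkb1-/- and clone A1. DESeq2 gave 2 for IL-1β in WT and 1 in clone A1, where it called 621 and 573 genes in all. The newer quasi-likelihood method gave 1 in clone A1, and only the groups compared 1 in clone A1 and 2 in clone A2 against Lkb1-/- after IL-1β. Leaving out 1 library gave 0 to 2 for IL-1β in WT and 0 to 1 in clone A1. For alternatives other than the block and DESeq2, the share of all genes called is not given here. Calls gained or lost there thus say little about the members as a group. Under the count filter fewer members were tested, and Pdgfa, which was tested, also lost its call in Lkb1-/- against WT after IL-1β (FDR = 0.107). The other causes were not tested.

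Where numbers do not pair the libraries, the replicate block called Pdgfra in untreated clone A1 against Lkb1-/- (-0.48, FDR = 0.00109) and in untreated clone A2 against A1 (0.52, FDR = 5.26e-04), and it changed no call of a member in the paired comparisons beyond those given. Counts of read pairs limit Pdgfd, with at most 5 per library outside clone A1.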
